A study of Mus musculus with 2 samples.

Results

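The genes described are 9 neurotrophic ligands and receptors, chosen by symbol from the 27998 genes counted in sorted wound cells: the ligands *Gdnf*, *Artn*, *Bdnf* and *Ntf3*, the co-receptors *Gfra1*, *Gfra2* and *Gfra3*, the receptor kinase *Ret*, and *Ngfr*. All 9 were found, each under 1 row, and all had at least 20 UMIs over both libraries (a UMI marks 1 counted transcript molecule). The cells were Tomato+ cells sorted from the dermis of healed skin wounds of mice aged 4 to 5 weeks. Control mice had the genotype SM22rtTA; tetO-Cre; R26-Tomato, and *SM22-SmoM2* mice the genotype SM22rtTA; tetO-Cre; R26-SmoM2/Tomato. In both groups, doxycycline food (20 g/kg) began on day 1 after wounding, and tissue was collected 3 days after the epidermis had closed. The promoter of SM22 (the smooth muscle gene *Tagln*) drives rtTA, a doxycycline-dependent activator, which turns on Cre; Cre then switches on the red protein Tomato in both groups, and in *SM22-SmoM2* mice also SmoM2, an active form of Smoothened that turns on Hedgehog (Hh) signaling.

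Ligands of the GDNF family bind a GFRA co-receptor held on the cell surface, and the pair engages RET, a receptor tyrosine kinase. Neurotrophins such as BDNF and NT-3 (from *Ntf3*) signal through TRK kinases, and p75 (from *Ngfr*) binds them as well. In skin, these factors are known for keeping sensory and sympathetic nerve fibres alive and guiding their growth, and Schwann cells of an injured nerve are known to make several of them.

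Each condition was 1 library made from pooled wounds, so no difference between the conditions has a replicate check and no p-value is given. Levels are UMIs of a gene per 1000000 UMIs (CPM) summed over the cells of a lineage, and brackets hold 95% intervals that cover counting error only. The 2856 control cells held 30103855 UMIs and the 1792 *SM22-SmoM2* cells 17814222, with medians of 8607.5 and 8837.5 per cell. Clusters were named from markers, and the named lineages were Schwann-like cells (675 control, 293 *SM22-SmoM2*), fibroblast-like cells (1099 and 1050), endothelial-like cells (691 and 264), muscle-like cells (283 and 100), immune-like cells (92 and 33) and keratinocyte-like cells (16 and 1). A cluster of 51 *SM22-SmoM2* cells led by *a* (agouti), *Ibsp* and *Cd24a* did not reach the marker score that a name needed and stays unnamed. The label of wound nerves refers here to the Schwann-like cells. They were named with 7 Schwann cell markers, so these markers do not check the name. All 7 reached 10 CPM in the Schwann-like cells of both libraries. The 5 neuronal markers, a list also used in naming, summed to 14.0 and 6.46 CPM there. *Rbfox3* and *Elavl4* were at 0 in both libraries, and the highest of the 5 was at 12.3 CPM in the control. The Schwann-like cells also held fibroblast marker RNA, 2944 CPM in the control and 2953 CPM in the *SM22-SmoM2* library over 6 markers, mostly from 1 of them. Among cells whose sex could be read from their RNA, males were 57.8% and 55.4% of Schwann-like cells but 74.6% and 94.5% of fibroblast-like cells. Sex thus moves with the library in fibroblasts, and its part in the fibroblast results is known only from the values in cells of 1 sex given below. No such values are given for the fibroblast ratios of *Gdnf*, *Gfra1*, *Ret*, *Nrtn*, *Ntrk2* and *Ntrk3*.

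In Schwann-like cells, 2 of the 9 genes were at least 2-fold lower in the *SM22-SmoM2* library, *Gfra3* and *Artn*, and none was 2-fold higher. In fibroblast-like cells, 3 were at least 2-fold higher, *Bdnf*, *Ntf3* and *Gdnf*, and 1 was 2-fold lower, *Gfra1*. These counts are over genes with 50 UMIs in the lineage, which 7 members passed in Schwann-like cells and 6 in fibroblast-like cells. Of all 8608 genes that passed in Schwann-like cells, 1.15% were 2-fold higher and 1.84% 2-fold lower. Of 11488 in fibroblast-like cells, 4.51% were higher and 5.13% lower. Over these same genes the median log2 ratio of the members was -0.40 in Schwann-like cells and 0.93 in fibroblast-like cells, beside -0.08 and -0.09 over all genes. In fibroblast-like cells *Bdnf*, *Ntf3* and *Gdnf* passed 50 UMIs through the *SM22-SmoM2* library, with 43, 26 and 38 UMIs in the control. *Ret* (log2 ratio -3.68), *Gfra3* (-1.24 [-2.28 to -0.29]) and *Artn* (-0.26 [-2.26 to 1.61]) did not reach it there. The 0.93 thus leaves out *Ret* and *Gfra3*, which were both lower past 2-fold. In endothelial-like cells only *Ret* and *Ngfr* had 50 UMIs and neither passed 2-fold; *Ngfr* had a log2 ratio of -0.98 [-2.26 to 0.10], but -2.33 [-4.66 to -0.71] with 12 clusters over all cells and -2.87 in male cells alone. In that lineage 0.638% of 9873 genes were higher and 1.53% lower.

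**Figure D1:**
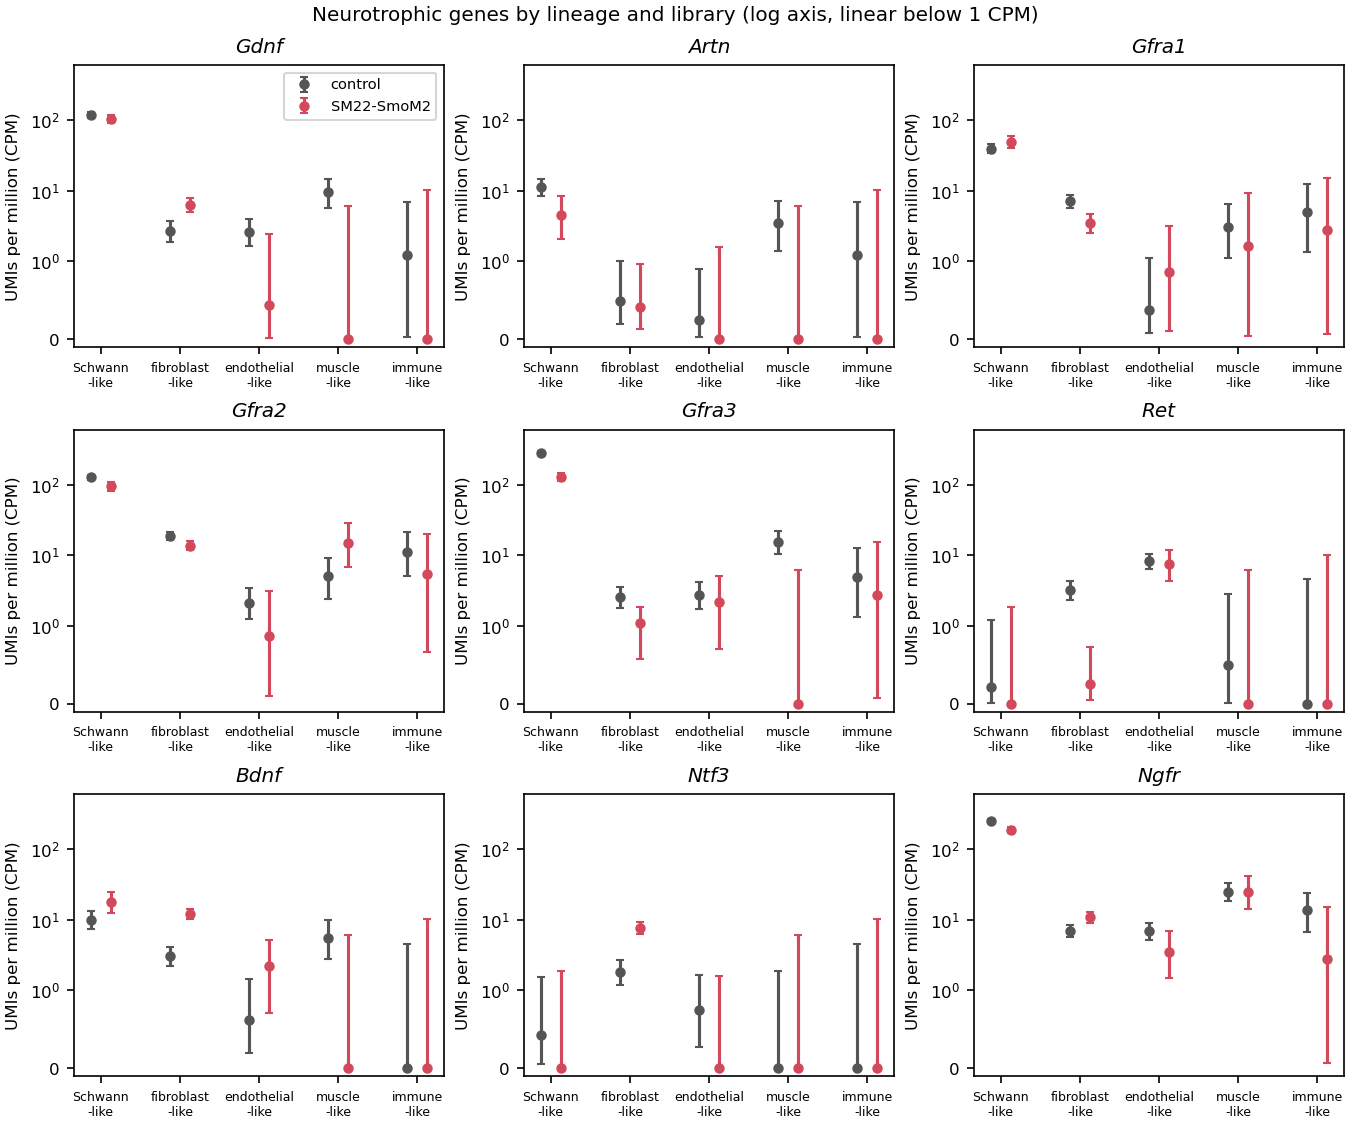
Level of each of the 9 genes (CPM, log axis that is linear below 1 CPM) in 5 lineages of the control (grey) and *SM22-SmoM2* (red) libraries; points are the values over all cells of a lineage and bars 95% counting intervals. *Gfra3*, *Ngfr*, *Gdnf*, *Gfra2*, *Gfra1* and *Artn* sit highest in Schwann-like cells of the control library, *Ntf3* in fibroblast-like cells and *Ret* in endothelial-like cells.

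*Gdnf*, which encodes glial cell line-derived neurotrophic factor, was a Schwann-like transcript in both libraries. Its level was 118 CPM [109 to 128] in control Schwann-like cells and 103 CPM [89.8 to 118] in *SM22-SmoM2* Schwann-like cells, from 557 and 208 UMIs. The log2 ratio of *SM22-SmoM2* over control was -0.19 [-0.43 to 0.04], an interval that holds 0. The Schwann-like cells fell into 3 clusters, one with *Cadm4* and *Gfra3*, one with *Sostdc1* and one with *Crym* among its leading genes, the last also with cell cycle genes. *Gdnf* stood at 137 and 129 CPM in the *Cadm4* *Gfra3* cluster, at 126 and 129 CPM in the *Sostdc1* cluster, and at 36.8 and 38.8 CPM in the *Crym* cluster (control, then *SM22-SmoM2*). The *Crym* cells lay below the other two clusters in both libraries, and the libraries overlapped within each cluster. *Gdnf* lies on chromosome 15, from 7810846 to 7837575 on the plus strand of GRCm38.

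Fibroblast-like cells held less *Gdnf*, and more of it in the *SM22-SmoM2* library. The level was 2.67 CPM [1.89 to 3.67] in the control and 6.34 CPM [5.002 to 7.92] with SmoM2, from 38 and 77 UMIs, and the log2 ratio was 1.25 [0.67 to 1.85]. These levels were 2.26% and 6.13% of those in Schwann-like cells, where the medians of the 7 Schwann markers were 1.54% (0.723% to 3.97% over the markers) and 1.07% (0.738% to 7.94%). Both *Gdnf* values lie inside the range of the Schwann markers and above their medians. The part of Schwann RNA in them was not tested. Within the *SM22-SmoM2* library the fibroblast-like clusters differed, from 0.91 CPM in the *Mmp3* *Angptl1* cells to 14.7 CPM in the *Penk* *Il1rl1* cells, which held 48.1% of the fibroblast *Gdnf* UMIs. After thinning each cell to 2500 UMIs the log2 ratio was 0.17 [-1.03 to 1.38]. Endothelial-like cells had 2.61 and 0.43 CPM, and muscle-like cells 9.48 and 0 CPM.

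*Artn* encodes artemin, the ligand of the *Gfra3* product, and was scarce. Control Schwann-like cells had 11.2 CPM [8.43 to 14.7] from 53 UMIs in 50 cells, and *SM22-SmoM2* Schwann-like cells 4.47 CPM [2.04 to 8.49] from 9 UMIs in 9 cells. The log2 ratio was -1.33 [-2.54 to -0.30]. After thinning to 2500 UMIs per cell it was 0.089 [-1.59 to 1.58], with a UMI left in 13 control and 6 *SM22-SmoM2* cells. The thinned interval holds both 0 and -1.33, so it does not settle the direction. All 3 Schwann-like clusters were lower in the *SM22-SmoM2* library, with 14.1 and 4.70 CPM, 7.24 and 4.95 CPM, and 15.3 and 3.53 CPM, and each of these intervals of the ratio holds 0. Fibroblast-like cells had 7 and 5 UMIs, muscle-like cells 7 and 0, and no other lineage more than 2. *Artn* lies on chromosome 4, from 117926162 to 117929763 on the minus strand.

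*Gfra3*, the co-receptor for artemin, was the better counted of the 2 genes that were 2-fold lower in *SM22-SmoM2* Schwann-like cells. Its level was 282 CPM [267 to 297] in control Schwann-like cells, from 1327 UMIs in 386 of 675 cells. It was 129 CPM [113 to 145] in *SM22-SmoM2* Schwann-like cells, from 259 UMIs in 108 of 293 cells. The intervals do not overlap, and the control level was 2.19 times as high as with SmoM2, which on the log2 scale is a ratio of -1.13 [-1.33 to -0.94]. Schwann-like cells held 92.7% and 92.8% of all *Gfra3* UMIs of the 2 libraries. *Gfra3* lies on chromosome 18, from 34689898 to 34720387 on the minus strand.

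The *Gfra3* difference was seen in each Schwann-like cluster. *Gfra3* was left out of the genes that formed the clusters, yet it was among the 3 leading genes of the *Cadm4* *Gfra3* cluster. Control cells of that cluster had 436 CPM [408 to 467] and *SM22-SmoM2* cells 223 CPM [187 to 262]. The *Sostdc1* cluster had 178 CPM [160 to 197] and 89.1 CPM [69.8 to 112], and the *Crym* cluster 138 CPM [111 to 170] and 79.3 CPM [57.9 to 106]. The *Cadm4* *Gfra3* cells were above the other two clusters in both libraries, while the *Sostdc1* and *Crym* cells overlapped in each library. Log2 ratios were -0.97 [-1.24 to -0.71], -0.999 [-1.38 to -0.63] and -0.80 [-1.35 to -0.27]. In male cells alone the ratio over all Schwann-like cells was -0.85 [-1.13 to -0.57], and in female cells alone -1.46 [-1.83 to -1.10], so the difference was under 2-fold in male cells.

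Per cell, the median was 1 *Gfra3* UMI in control and 0 in *SM22-SmoM2* Schwann-like cells, with highest values of 13 and 8. After thinning each cell to 2500 UMIs, the share with a *Gfra3* UMI was 41.9% [38.2 to 45.8] in control and 25.9% [21.02 to 31.4] in *SM22-SmoM2* cells, where unthinned shares were 57.2% and 36.9% at median depths of 5975 and 5597 UMIs. In fibroblast-like cells, which are not known for this gene, the thinned shares were 0.637% and 0.190% at median depths of 12465 and 11187 UMIs. The Schwann-like shares stand far above this background. In other lineages *Gfra3* was 15.5 CPM [10.5 to 22.0] in control muscle-like cells and 39.6 CPM [20.4 to 69.1] in control keratinocyte-like cells, the latter from 12 UMIs in 3 of 16 cells, and these intervals overlap. *Gfra3* levels in fibroblast-, endothelial-, muscle- and immune-like cells were between 0 and 5.49% of the Schwann-like level, and the medians of the Schwann markers there were between 0 and 3.46%.

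**Figure D2:**
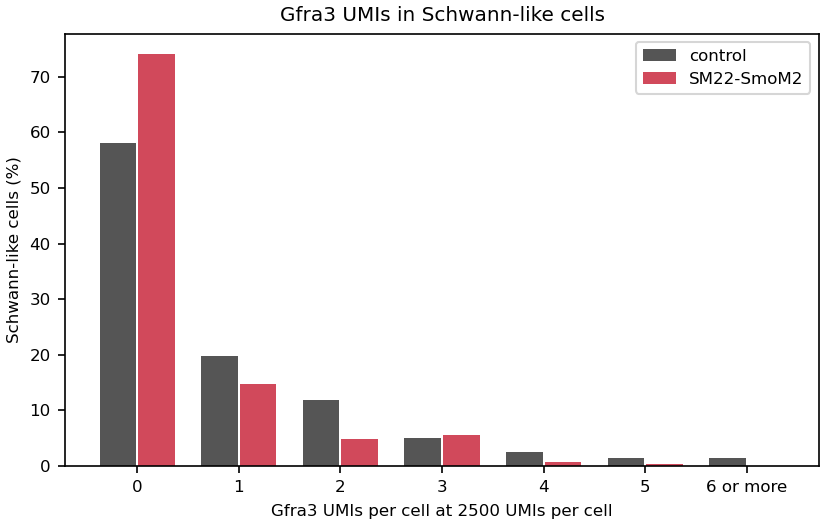
Share of Schwann-like cells (vertical axis, %) by the number of *Gfra3* UMIs per cell (horizontal axis), each cell thinned to 2500 UMIs, for the control (grey) and *SM22-SmoM2* (red) libraries. Cells with 0 UMIs made up 58.1% of control and 74.1% of *SM22-SmoM2* cells, and cells with 2 UMIs 11.9% and 4.78%.

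*Gfra1* encodes the co-receptor for GDNF and was held by Schwann-like and by some fibroblast-like cells. Schwann-like cells had 39.3 CPM [33.8 to 45.3] in the control and 48.7 CPM [39.5 to 59.3] with SmoM2, and the interval of the log2 ratio, 0.31 [-0.06 to 0.67], holds 0. It was -0.20 [-0.82 to 0.38] in male cells alone and 0.69 [0.03 to 1.34] in female cells alone. Fibroblast-like cells had 7.04 CPM [5.72 to 8.56] and 3.46 CPM [2.49 to 4.67], a log2 ratio of -1.03 [-1.58 to -0.49]. This difference rested on 60 control cells led by *Thbs4*, *Cst6* and *Apod*, which had 67.6 CPM and 45.0% of the control fibroblast UMIs and were joined by 3 cells of the *SM22-SmoM2* library. Without that cluster the log2 ratio was -0.23 [-0.84 to 0.38], and after thinning to 2500 UMIs it was -0.60 [-1.77 to 0.52]. The unnamed *SM22-SmoM2* cells had 30.01 CPM [14.98 to 53.7], above the 3.46 CPM of fibroblast-like cells of their library. *Gfra1* lies on chromosome 19, from 58235604 to 58455909 on the minus strand, and *Gm16277* overlaps it on the opposite strand.

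*Gfra2*, the co-receptor for neurturin, was likewise found in both lineages. Schwann-like cells had 126 CPM [116 to 137] in the control and 95.4 CPM [82.4 to 109.9] with SmoM2, a log2 ratio of -0.40 [-0.65 to -0.17], and -0.21 [-0.54 to 0.12] in male cells alone. Fibroblast-like cells had 18.6 CPM [16.4 to 20.96] and 13.7 CPM [11.7 to 15.9], a log2 ratio of -0.44 [-0.73 to -0.16]. Both differences were under 2-fold, but in fibroblast-like cells the size and direction depended on how the cells were grouped. The ratio was -1.11 [-1.45 to -0.78], past 2-fold, with 12 clusters over all cells, -0.66 in male cells alone and 1.52 [0.59 to 2.40] in female cells alone, where 221 control and 46 *SM22-SmoM2* cells were read as female. The fibroblast UMIs came from different clusters in the 2 libraries. In the control, 41.7% came from the *Clec3b* *Sfrp2* cells at 26.3 CPM, and in the *SM22-SmoM2* library 64.5% came from the *Egfl6* *Wif1* cells at 45.4 CPM. *Gfra2* lies on chromosome 14, from 70890120 to 70979838 on the plus strand.

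*Ret*, the kinase that GFRA co-receptors engage, was close to undetected in Schwann-like cells, with 1 UMI in 675 control cells and 0 in 293 *SM22-SmoM2* cells. A count of 0 there allows up to 1.49 CPM. *Ret* was instead found in endothelial-like cells, at 8.19 CPM [6.34 to 10.4] in control cells and 7.36 CPM [4.29 to 11.8] in *SM22-SmoM2* cells, from 66 and 17 UMIs. The log2 ratio was -0.16 [-1.02 to 0.63]. Among endothelial-like clusters, the *Ccl21a* *Lrg1* cells had 13.0 and 11.0 CPM, the *Lrg1* *Emcn* cells 9.22 and 5.51 CPM, and the *Cldn5* *Egfl7* cells, which also express the capillary gene *Gpihbp1*, 2.68 and 4.03 CPM. The control intervals of the first and last cluster, 8.80 to 18.6 and 1.08 to 5.53 CPM, do not overlap.

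Control fibroblast-like cells also held *Ret*, at 3.17 CPM [2.31 to 4.24] from 45 UMIs in 39 cells, against 0.25 CPM [0.05 to 0.72] from 3 UMIs in *SM22-SmoM2* cells. The log2 ratio was -3.68 [-6.01 to -2.04], from under 50 UMIs and so outside the counts above. The *Clec3b* *Sfrp2* cells gave 53.3% of the control UMIs at 5.75 CPM and numbered 273 control and 3 *SM22-SmoM2* cells. The *Crabp1* *Prss35* cells, present in both libraries, had 3.33 CPM [1.82 to 5.58] and 1.08 CPM [0.13 to 3.89], which overlap. *Ret* lies on chromosome 6, from 118151745 to 118197718 on the minus strand.

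*Ngfr*, which encodes the p75 neurotrophin receptor of Schwann cells, was present in 417 of 675 control and 154 of 293 *SM22-SmoM2* Schwann-like cells. Its level was 253 CPM [239 to 268] and 188 CPM [169 to 208], a log2 ratio of -0.43 [-0.60 to -0.26] that is under 2-fold. It was -0.81 [-1.09 to -0.54] in male cells alone, but the interval held 0 in female cells alone, -0.17 [-0.45 to 0.11], and after thinning to 2500 UMIs, -0.19 [-0.46 to 0.07]. The *Sostdc1* cells had 338 and 292 CPM, the *Crym* cells 222 and 122 CPM, and the *Cadm4* *Gfra3* cells 175 and 114 CPM. In the control the 3 clusters did not overlap except that the *Cadm4* *Gfra3* upper bound of 194 CPM exceeded the *Crym* lower bound of 188 CPM, an order unlike that of *Gfra3*, which was highest in the *Cadm4* *Gfra3* cells. In fibroblast-like cells *Ngfr* was 6.97 CPM [5.66 to 8.48] and 10.7 CPM [8.94 to 12.7], a log2 ratio of 0.62 [0.23 to 1.01]. This ratio too moved with the cells kept, to 1.01 [0.49 to 1.55] in male cells alone, 0.04 [-1.69 to 1.43] in female cells alone and 0.48 [-0.33 to 1.31] after thinning. The *Thbs4* *Cst6* cells held 43.4% of the control fibroblast UMIs at 64.6 CPM, and without that cluster the ratio was 1.37 [0.91 to 1.85], past 2-fold. The *Penk* *Clec3b* cells held 56.9% of the *SM22-SmoM2* UMIs at 22.7 CPM. *Ngfr* lies on chromosome 11, from 95568818 to 95587735 on the minus strand.

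*Bdnf* encodes brain-derived neurotrophic factor and was higher in fibroblast-like cells of the *SM22-SmoM2* library. Control cells had 3.03 CPM [2.19 to 4.08] and *SM22-SmoM2* cells 12.1 CPM [10.2 to 14.2], from 43 and 147 UMIs, and the intervals do not overlap. The log2 ratio was 2.0 [1.501 to 2.53]. It was 2.19 [1.55 to 2.89] in male cells alone and -0.29 [-5.78 to 2.68] in female cells alone. The *Crabp1* *Prss35* cells gave 79.1% of the control UMIs and stood at 8.08 CPM there and at 8.07 CPM with SmoM2, so the libraries did not part within it. The *Egfl6* *Wif1* and *Penk* *Il1rl1* cells, of which the control library had 8 and 6 cells, stood at 18.7 and 19.1 CPM and gave 29.9% and 32.7% of the *SM22-SmoM2* UMIs. Schwann-like cells had 9.97 CPM [7.33 to 13.3] and 17.9 CPM [12.5 to 24.8], a log2 ratio of 0.84 [0.17 to 1.4996], with 1.69 [0.63 to 2.78] in male cells alone and 0.16 [-1.09 to 1.31] in female cells alone. In both libraries 5 cells held over 40% of these Schwann UMIs, 42.6% and 41.7%. *Bdnf* lies on chromosome 2, from 109674700 to 109727007 on the plus strand, and Gm45346 overlaps it on the opposite strand.

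*Ntf3*, the gene of neurotrophin-3, had 74.3% of its control UMIs and 88.6% of its *SM22-SmoM2* UMIs in fibroblast-like cells. Its level there was 1.83 CPM [1.20 to 2.68] in the control and 7.66 CPM [6.18 to 9.38] with SmoM2, from 26 and 93 UMIs in 19 and 64 cells. The log2 ratio was 2.07 [1.42 to 2.75], and 2.41 in male cells alone. Schwann-like cells had 2 and 0 UMIs and endothelial-like cells 6 and 0. The *Egfl6* *Wif1* cells of the *SM22-SmoM2* library had 21.2 CPM and 53.8% of the fibroblast UMIs, and the unnamed cells 32.7 CPM [16.9 to 57.2]. In the cycling cells led by *Gm26870*, which are in both libraries, the level was 2.70 and 20.4 CPM, a log2 ratio of 2.92 [1.17 to 5.31], while in the *Crabp1* *Prss35* cells it was 0.32 [-0.89 to 1.45]. *Ntf3* lies on chromosome 6, from 126101412 to 126166910 on the minus strand.

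**Figure D3:**
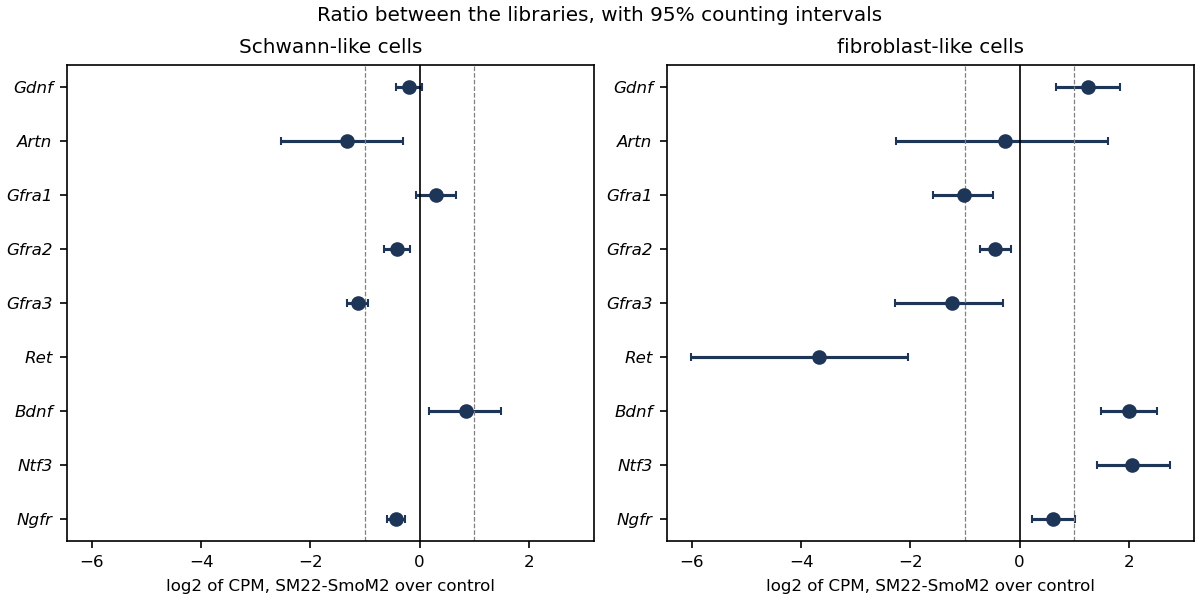
Log2 ratio of CPM, *SM22-SmoM2* over control, for each gene in Schwann-like (left) and fibroblast-like (right) cells, with 95% counting intervals; dashed lines mark 2-fold, and genes with 3 or fewer UMIs in both libraries have no point. *Gfra3* and *Artn* lie below -1 in Schwann-like cells. In fibroblast-like cells *Bdnf*, *Ntf3* and *Gdnf* lie above 1, and *Gfra1*, *Gfra3* and *Ret* lie below -1.

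**Figure D4:**
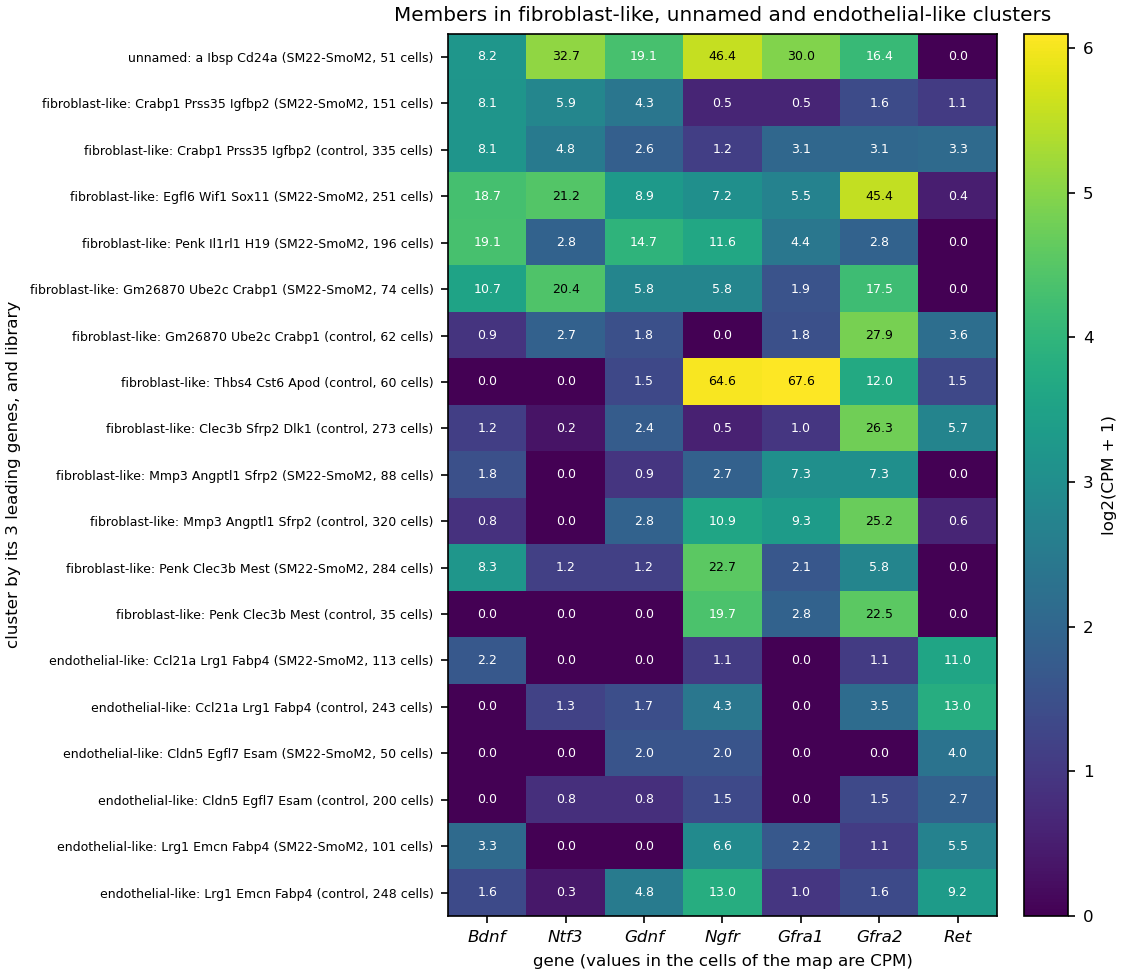
Level (CPM, printed in each field; colour is log2(CPM + 1)) of 7 of the genes in fibroblast-like, unnamed and endothelial-like clusters, 1 row per cluster and library with at least 20 cells. *Ntf3* reaches 32.7 CPM in the unnamed and 21.2 CPM in the *Egfl6* *Wif1* cells, *Ngfr* and *Gfra1* reach 64.6 and 67.6 CPM in the *Thbs4* *Cst6* cells, and *Ret* lies mainly in endothelial-like rows.

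The sequence before the start sites of the 3 ligands that were 2-fold higher in *SM22-SmoM2* fibroblast-like cells was searched for the GLI motif, since GLI factors act at the end of the Hh pathway. RefSeq (GRCm38.p6) gave start sites for 6 of the 9 members, with 14 windows of 250 bases before a start; *Gfra2*, *Gfra3* and *Ret* had none. The motif GACCACCCA was in 0 of the 14 windows, on either strand, and in 0.225% of the 32851 promoter windows of the genome. Its core CCACCC, which the longer motif contains, was in 4 of the 14 and in 28.1% of all. A match is a string of letters and not a site shown to be bound. One window is shown for each ligand from those that overlap no annotated exon of these genes. It runs 5′ to 3′ along the gene, with the core, here as its reverse complement, in capitals. The *Bdnf* window, that of the fifth start site, holds 2 cores, the most of any *Bdnf* window, and the other windows shown hold none. Of the windows not shown, the second of *Bdnf*, the first of *Ntf3* and that of *Ngfr* hold 1 core each. The 14 windows include those of *Gfra1*, *Artn* and *Ngfr*, which are not among the 3 ligands.
Bdnf, chr2:109694159-109694408, plus strand: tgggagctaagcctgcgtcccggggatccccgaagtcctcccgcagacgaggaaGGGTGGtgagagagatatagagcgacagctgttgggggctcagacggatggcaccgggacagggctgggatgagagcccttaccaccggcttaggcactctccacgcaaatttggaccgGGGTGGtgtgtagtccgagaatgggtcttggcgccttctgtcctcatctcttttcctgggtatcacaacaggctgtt
Ntf3, chr6:126164961-126165210, minus strand: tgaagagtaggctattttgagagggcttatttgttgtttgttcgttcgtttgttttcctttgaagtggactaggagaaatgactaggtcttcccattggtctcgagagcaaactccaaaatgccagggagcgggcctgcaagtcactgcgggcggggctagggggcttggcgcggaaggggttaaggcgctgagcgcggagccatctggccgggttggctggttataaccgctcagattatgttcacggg
Gdnf, chr15:7809798-7810047, plus strand: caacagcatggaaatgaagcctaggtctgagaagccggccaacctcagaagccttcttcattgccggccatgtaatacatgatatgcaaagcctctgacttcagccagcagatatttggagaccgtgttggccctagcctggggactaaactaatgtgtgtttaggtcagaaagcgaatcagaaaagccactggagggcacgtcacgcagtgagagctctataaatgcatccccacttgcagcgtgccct

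The whole neurotrophic list, which includes the 9 members, was read in the same way. Of its 28 genes, 17 had 50 UMIs in Schwann-like cells, with 0 higher and 2 lower by 2-fold, and 19 in fibroblast-like cells, with 6 higher and 2 lower. The 2 lower in Schwann-like cells were the members *Artn* and *Gfra3* again. In fibroblast-like cells the members *Bdnf*, *Ntf3* and *Gdnf* were among the 6, and *Gfra1* among the 2 lower. Over genes with 50 UMIs, the median log2 ratio of the whole list was -0.19 in Schwann-like and 0.17 in fibroblast-like cells. For the members alone it was -0.40 and 0.93, again over those with 50 UMIs. *Nrtn*, the neurturin gene, had 4.50 and 24.4 CPM in fibroblast-like cells, a log2 ratio of 2.44 [2.04 to 2.85], and reached 90.0 CPM in the *Egfl6* *Wif1* cells. Among the kinases, *Ntrk3*, the receptor for NT-3, had 0.56 and 10.5 CPM in fibroblast-like cells, a log2 ratio of 4.23 [3.20 to 5.47], and 8.70 and 2.98 CPM in Schwann-like cells. *Ntrk2*, the receptor for BDNF, had 12.7 and 4.94 CPM in fibroblast-like cells, a log2 ratio of -1.36 [-1.81 to -0.93], with 135 CPM in the control *Thbs4* *Cst6* cells. That cluster held 60 control and 3 *SM22-SmoM2* cells, and the *Ntrk2* ratio without it was not computed. The *Ntrk2* level was higher in Schwann-like cells, at 52.0 and 28.3 CPM, a log2 ratio of -0.88 [-1.32 to -0.46].

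The other genes reported from the list differed by less than 2-fold where they had 50 UMIs. *Gfra4*, the co-receptor for persephin, was a fibroblast transcript with 8.87 and 14.6 CPM, a log2 ratio of 0.72 [0.38 to 1.06]. *Ncam1*, an adhesion molecule that also binds GDNF, had 165 and 170 CPM in Schwann-like and 127 and 142 CPM in fibroblast-like cells. *Lif*, a cytokine of injured nerves, had 23.3 and 16.9 CPM in Schwann-like cells and 3.03 and 6.01 CPM in fibroblast-like cells. The heparan sulfate proteoglycan gene *Sdc3*, the sorting receptor gene *Sort1*, *Gdf15*, *Manf*, *Lifr* and *Cntfr* had log2 ratios between -0.86 and 0.18 wherever they had 50 UMIs in these 2 lineages. Fewer than 20 UMIs over both libraries were found for 6 genes, among them *Ntf5*, *Pspn*, *Gfral*, *Cntf* and *Cdnf*.

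Schwann-like cells were then split by whether they held a *Gfra3* UMI, in each library on its own, to ask which genes go with it. In the control 386 cells had one and 289 did not, with median depths of 5631.5 and 6389 UMIs, and in the *SM22-SmoM2* library 108 and 185, with 4916.5 and 5942 UMIs. Cells with *Gfra3* UMIs were thus not the deeper ones. Of the members, 4 had 50 UMIs in each library and none passed 2-fold in both. Over all 5029 such genes, 0.239% were 2-fold higher and 0.0994% 2-fold lower in both libraries.

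*Gdnf* was higher in the cells with *Gfra3* UMIs, at 133 and 99.6 CPM in the control (with, then without) and at 142 and 83.8 CPM in the *SM22-SmoM2* library. The log2 ratios were 0.42 [0.17 to 0.68] and 0.76 [0.35 to 1.17], and after thinning to 2500 UMIs 0.18 [-0.23 to 0.59] and 0.48 [-0.13 to 1.08], which hold 0. *Gfra1* was lower, at 31.2 and 49.1 CPM and at 32.6 and 56.8 CPM, with log2 ratios of -0.65 [-1.09 to -0.22] and -0.80 [-1.56 to -0.10]. In cells of 1 sex the *Gfra1* intervals held 0 in both libraries, with ratios between -0.63 and -0.052. For *Gfra2* the ratios were -0.16 [-0.40 to 0.08] and -0.19 [-0.66 to 0.27], and for *Ngfr* 0.04 [-0.13 to 0.21] and -0.07 [-0.39 to 0.25], intervals that hold 0 over all Schwann-like cells. Within single clusters or in 1 sex of the control they did not always hold it. *Ngfr* was 0.73 [0.34 to 1.14] within the *Cadm4* *Gfra3* cluster, 0.23 [0.01 to 0.45] within the *Sostdc1* cluster and 0.37 [0.06 to 0.68] in female cells. *Gfra2* was 0.99 [0.43 to 1.60] within the *Cadm4* *Gfra3* cluster, but -0.35 [-0.71 to -0.01] within the *Sostdc1* cluster and -0.46 [-0.81 to -0.11] in male cells. In the *SM22-SmoM2* library *Ngfr* was -0.53 [-1.05 to -0.03] after thinning. *Bdnf* had 0.14 and 0.66 and *Artn* 0.09 and -0.01, with intervals that hold 0, but in male cells alone *Bdnf* had 2.42 [0.25 to 5.62] and 1.47 [0.06 to 2.96]. The *Gdnf* ratio in the *SM22-SmoM2* library was 1.23 within the *Cadm4* *Gfra3* cluster and 0.33 within the *Sostdc1* cluster.

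**Figure D5:**
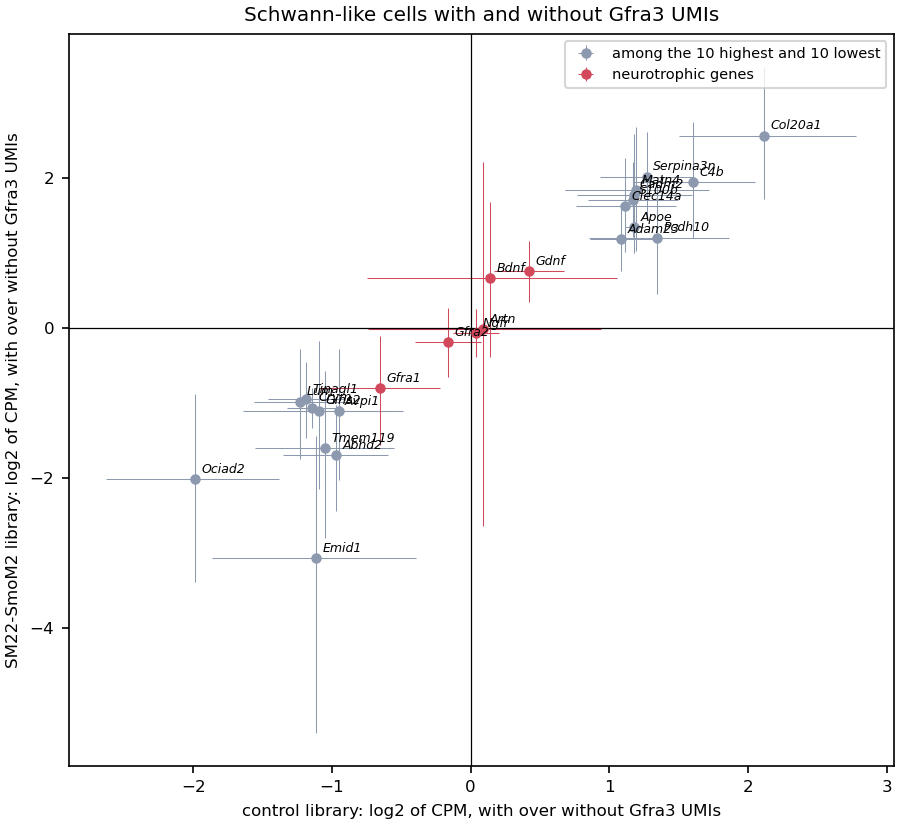
Log2 ratio of CPM in Schwann-like cells with over without *Gfra3* UMIs, in the control (horizontal axis) and *SM22-SmoM2* (vertical axis) libraries, for 6 of the neurotrophic genes (red) and genes among the 10 highest and 10 lowest (grey); bars are 95% counting intervals. *Gdnf* lies above 0 and *Gfra1* below 0 in both libraries, and the highest gene, *Col20a1*, is at 2.12 and 2.57.

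The 10 genes highest in cells with *Gfra3* UMIs were *Col20a1*, *C4b*, *Serpina3n*, *Pcdh10*, *Matn4*, *Apoe*, *Cadm2*, *S100b*, *Clec14a* and *Adam23*. *Col20a1*, a collagen gene, had 53.2 and 12.3 CPM in the control and 71.05 and 11.96 CPM in the *SM22-SmoM2* library, with log2 ratios of 2.12 [1.504 to 2.78] and 2.57 [1.73 to 3.49]. The complement gene *C4b* had log2 ratios of 1.60 and 1.95, the protease inhibitor gene *Serpina3n* 1.27 and 2.02, and the lipoprotein gene *Apoe* 1.18 and 1.35. *S100b*, a Schwann cell marker that was also used to name the clusters, had 1.17 and 1.71. Among the 10 lowest were *Ociad2*, *Emid1*, *Gins2*, *Crym*, *Tmem119*, *Lum*, *Abhd2*, *Avpi1* and *Tinagl1*. For *Emid1*, 5 cells held 68.1% of the control and 88.7% of the *SM22-SmoM2* UMIs. Without the 5 cells of each library richest in a myelin gene its ratios were -0.04 [-1.11 to 1.05] and -0.80 [-3.30 to 1.16]. *Lum*, a fibroblast marker used to name the clusters, had 36.1% and 52.4% of its UMIs in 5 cells. *Ociad2* had 11.6 and 45.8 CPM in the control and 10.4 and 41.9 CPM in the *SM22-SmoM2* library, with log2 ratios of -1.99 and -2.01.

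Schwann cell programs were compared in the same split. Of 7 genes of nonmyelinating or immature Schwann cells, 6 were higher in the cells with *Gfra3* UMIs in each library, where 2408 and 2428 of all 5029 genes were. Among them were the sodium channel gene *Scn7a* with log2 ratios of 0.79 [0.60 to 0.98] and 0.64 [0.32 to 0.96] and *Gfap* with 1.05 [0.54 to 1.58] and 1.11 [-0.20 to 2.43]. *Ncam1* was lower in the control, -0.38 [-0.59 to -0.17], and counted as higher with SmoM2 at 0.004 [-0.33 to 0.33]. In the *SM22-SmoM2* library the intervals of *Gap43* (0.32 [-0.005 to 0.64]), *Sox2* (0.24 [-0.15 to 0.62]) and the lower gene *Cdh2* (-0.03 [-0.60 to 0.52]) also held 0. The median of the 7 genes was 0.31 and 0.32, beside -0.02 and -0.01 over all genes. Genes of the Schwann cell response to injury were mixed. In the control 3 of 7 were higher and in the *SM22-SmoM2* library 6 of 6, with medians of -0.19 and 0.21. *Btc* among them had -1.05 [-1.30 to -0.81] and 0.005 [-0.42 to 0.42], and *Fgf5* 0.29 [0.16 to 0.43] and 0.65 [0.42 to 0.89]. Of the myelin genes, 9 of 14 were lower in the control and 13 of 13 in the *SM22-SmoM2* library, beside 2621 and 2601 of the 5029. *Mbp*, the gene of myelin basic protein, had 521 and 418 CPM in the control and 262 and 497 CPM in the *SM22-SmoM2* library, with log2 ratios of 0.32 [0.19 to 0.44] and -0.92 [-1.17 to -0.68], so its direction differed between the libraries. These ratios rested in part on few cells: 5 myelin-rich cells of each library held 23.9% and 48.1% of the *Mbp* UMIs, and without them the ratios were 0.86 [0.71 to 1.01] and 0.38 [0.10 to 0.66], above 0 in both. The 13 of 13 did not hold without these cells either. In the *SM22-SmoM2* library *Pmp22* was then 0.37 [0.20 to 0.53], *Prx* 0.72 [-1.13 to 2.51] and *Gldn* 0.20 [-0.31 to 0.69]. *Ugt8a* was 0.16 [-1.42 to 1.62], *Mal* 0.009 [-0.35 to 0.36] and *Egr2* -0.06 [-0.53 to 0.40]. A further myelin gene, not reported here, stayed lower, and the rest had too few UMIs for a ratio.

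Markers of other cells were read in the same split. The summed level of 6 fibroblast markers was 2608 CPM in cells with and 3355 CPM in cells without *Gfra3* UMIs in the control, and 2539 and 3162 CPM in the *SM22-SmoM2* library. The 6 melanocyte markers, genes of pigment cells, another neural crest lineage, summed to 8.48 and 250 CPM in the control and to 23.7 and 29.2 CPM in the *SM22-SmoM2* library. In the control, 4 cells without *Gfra3* UMIs held 508 of the 552 melanocyte marker UMIs. The part of these cells in the ratios was not tested.

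Fibroblast-like cells of the *SM22-SmoM2* library were divided by Hh targets, to ask whether the higher ligands go with Hh activity in the same library. Sub-clusters with at least 3 raised genes of 5 Hh pathway genes, *Gli1*, *Gli2*, *Ptch1* and *Hhip* among them, were called Hh-active-like and held 688 cells, and 362 cells were left as other. *Gli1*, a direct Hh target, had 42.5 CPM in the first and 11.7 CPM in the second. Of the 5 members with 50 UMIs, *Ngfr* and *Gfra2* were 2-fold higher in Hh-active-like cells and 0 were lower. Over 9932 genes, 5.27% were 2-fold higher and 5.75% 2-fold lower.

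*Ngfr* had 15.4 CPM [12.7 to 18.5] in Hh-active-like cells and 3.03 CPM [1.65 to 5.08] in the other cells, a log2 ratio of 2.35 [1.55 to 3.27]. *Gfra2* had 17.2 and 7.996 CPM, a ratio of 1.10 [0.56 to 1.67], and *Bdnf* 14.8 and 7.78 CPM, a ratio of 0.92 [0.37 to 1.51]. *Ntf3* had 7.98 CPM [6.09 to 10.3] and 7.13 CPM [4.91 to 10.0], and *Gdnf* 6.65 and 5.83 CPM, and the intervals of both ratios, 0.16 [-0.47 to 0.82] and 0.19 [-0.51 to 0.92], hold 0. The other *SM22-SmoM2* cells were not without Hh target RNA: *Ptch1* was 58.6 CPM in them and 8.83 CPM in the corresponding 1048 control cells, *Gli1* 11.7 and 4.16 CPM, and *Hhip* 5.83 and 0.15 CPM. They were in turn higher than these control cells in *Ntf3*, by 1.91 [1.12 to 2.71] on the log2 scale, in *Bdnf*, by 1.31 [0.63 to 1.98], and in *Gdnf*, by 1.23 [0.45 to 2.01]. *Ngfr* in the same cells was lower, with a ratio of -1.09 [-2.01 to -0.26]. *Gfra2* was lower in them too, with a ratio of -1.18 [-1.72 to -0.68]. These control cells had 18.2 CPM of *Gfra2*, so its 17.2 CPM in Hh-active-like cells was not above the control level. Among *SM22-SmoM2* clusters *Gfra2* was 45.4 CPM in the *Egfl6* *Wif1* cells, but 2.79 and 5.83 CPM in the *Penk* *Il1rl1* and *Penk* *Clec3b* cells. With the fibroblasts cut into 10 sub-clusters the *Gdnf* ratio of Hh-active-like over other cells was 1.86 instead. In the 51 control fibroblasts called Hh-active-like, *Bdnf* and *Ntf3* were at 0 UMIs, which allows up to 5.89 CPM. *Gdnf* was 7.86 CPM [2.14 to 20.1] from 4 UMIs in them and *Ngfr* 21.6 CPM [10.8 to 38.7] from 11 UMIs. The 1048 other control cells had 2.48 and 6.42 CPM of these 2 genes. The 51 unnamed cells had 109 CPM of *Gli1*, and their *Ngfr* was 46.4 CPM [27.0 to 74.3], above that of Hh-active-like cells.

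The genes with the pattern most like each member were read from the correlation of log2(CPM + 10) over 31 groups of 1 cluster and 1 library, among 10111 genes; the groups share libraries and depth, so the values only describe. For *Gfra3* these were *Chl1*, *Sox6* and *Gpr37l1* with Pearson's r of 0.98, 0.98 and 0.98. For *Gdnf* they were *Kcna1*, *Cadm2* and *Pcdh9* (0.96, 0.96 and 0.95), and for *Ngfr* *Cadm4*, *Wnt6* and *Atp6v0e2* (0.94, 0.94 and 0.93). *Ret* was nearest to *Ptgs1*, *Npr1* and *Chp2* (0.91, 0.88 and 0.87), and *Ntf3* to *Frzb*, *Cdo1* and *Bmp3* (0.93, 0.89 and 0.88). *Gfra1* was nearest to *Chst8* (0.92), *Gfra2* to *Megf9* (0.88), *Artn* to *Csmd1* (0.90) and *Bdnf* to *Itpkc* (0.80), which is the loosest of the 9.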

How the data were processed

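Tomato+ dermal cells of 1 control and 1 *SM22-SmoM2* library (10x 3′ v2 kit) were analysed. The deposited matrices hold raw, whole UMI counts, which the authors made with bcl2fastq and Cell Ranger on mm10; the versions are not given in the sources used here. The barcode list covers the whole kit, so barcodes shared between libraries were not counted.

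Cells with fewer than 200 genes or over 10% mitochondrial UMIs were left out, 22 and 10 cells. Doublets were kept. K-means (K = 20, 50 starts; scikit-learn 1.9.0, scanpy 1.11.5) ran on 20 principal components of 2000 variable genes, from UMIs scaled to 10000 per cell, without the 28 neurotrophic genes. Clusters were named where 3 markers reached both 10 CPM and 1.5 times their median over clusters, with a mean log2 score of 1, a limit set after the clusters had been seen. Fibroblasts were clustered again with K = 15. Poisson, conditional binomial and Clopper-Pearson intervals are exact; a count of 0 was read as up to 3 UMIs, and no ratio was taken where both counts were 3 or fewer. Members and lists were chosen with earlier results of these data known. Named were the members, list genes with 20 UMIs, the 10 genes highest and 10 lowest by *Gfra3* status (ranked by the weaker library, 50 UMIs in each), and the 3 most similar genes per member; some of these genes are not reported here. Positions came from GENCODE M21, where 27645 IDs were found. The ratio was tested on simulated data. Alternatives covered filters, Scrublet, K = 12 and 30, Leiden, thinning, mean CPM per cell, sex, depth and *Gfra3* thresholds.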

Additional observations from a re-analysis of the deposited data

Results flagged for a closer look

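*Ngfr* was lower in Schwann-like and higher in fibroblast-like cells of the *SM22-SmoM2* library, with both counting intervals over all cells clear of 0. The log2 ratio of *SM22-SmoM2* over control was -0.43 in Schwann-like and 0.62 in fibroblast-like cells. The Schwann-like interval held 0 in female cells alone, -0.17 [-0.45 to 0.11], and after thinning each cell to 2500 UMIs, -0.19 [-0.46 to 0.07]. The fibroblast-like interval held 0 in female cells alone, 0.04 [-1.69 to 1.43], and after thinning, 0.48 [-0.33 to 1.31], while the ratio was 1.01 in male cells alone and 1.37 without the *Thbs4* *Cst6* cluster. With 1 library per condition, the difference between the lineages was not tested, and the share of male cells was 74.6% in control and 94.5% in *SM22-SmoM2* fibroblast-like cells, beside 57.8% and 55.4% in Schwann-like cells.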

How the results depend on the processing

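Each of 19 main and 65 further values was recomputed under those of 23 settings that could give it, 20 of them planned. Of the main values, 183 recomputed ones moved by less than their counting interval, 22 moved by more and 2 changed sign from a first interval clear of 0; of the others, 774, 144 and 5. The recomputed log2 values numbered 157 main and 923 other ones. Of these, 1 and 38 also changed sign where the first interval held 0. Among them were *Gfra1* in Schwann-like cells (-0.20 in male cells) and *Gfra2* in the control split by *Gfra3* (0.45 in female cells). The cause of the moves was not tested. For *Gfra3* in Schwann-like cells, the mean of per-cell CPM gave 336 and 183 CPM and a log2 ratio of -0.88, and thinning to 2500 UMIs gave 339.6 and 180.2 CPM and -0.91. Male cells alone gave 258 CPM in the control and a ratio of -0.85, and female cells alone 328 CPM and -1.46. The share with a *Gfra3* UMI in the control was 30.7% at 1500 UMIs, 47.2% at 5000 UMIs and 46.7% in female cells, and in the *SM22-SmoM2* library 20.1% at 1500 UMIs. Thinning gave log2 ratios of 0.089 for *Artn* in Schwann-like cells, a changed sign, and 0.17 for *Gdnf* in fibroblast-like cells. In fibroblast-like cells, *Gfra1* was -0.23 without the *Thbs4* *Cst6* cluster, *Ntf3* 1.29 and *Gfra2* -1.11 with K = 12, and *Bdnf* -0.29 and *Gfra2* 1.52 in female cells, both changed signs. Control *Ret* in endothelial-like cells was 11.4 CPM in female cells.

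For cells with over without *Gfra3* UMIs, *Gdnf* was 1.16 within the control *Crym* cluster, and 1.23 and 0.33 within the *SM22-SmoM2* *Cadm4* *Gfra3* and *Sostdc1* clusters. In female cells *Gfra1* was -0.052 in the *SM22-SmoM2* library, and signs changed for *Emid1* (0.26) and *Avpi1* (0.27) in the control and *Lum* (0.074) in the *SM22-SmoM2* library. Within the *Cadm4* *Gfra3* cluster the sign changed for *Lum* in the *SM22-SmoM2* library (0.54). Scrublet marked 5 control and 11 *SM22-SmoM2* barcodes. Settings without the *Thbs4* *Cst6* cluster, without 5 myelin-rich cells of each library, and with the unnamed cells added to fibroblast-like or Hh-active-like cells were chosen after seeing the data. No paired analysis was possible because each group has 1 library and no result comes from a test. Depth limits *Artn*, *Ret* and *Ntf3* outside their main lineages.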
